A study of Mus musculus with 40 samples.

Results

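The data described here ask whether the effect of a high-fat diet (HFD) on liver messenger RNA depended on PPARγ in hepatocytes when no drug was given. They come from 20 of the 40 liver libraries of the series, those of the 4 groups whose titles name no pioglitazone (Pio), with 5 mice in each group. Wild-type (WT) mice were C57BL6/J. Knockout (KO) mice carried a loxP-flanked Pparg gene together with Cre recombinase under the albumin promoter. All were male and were killed at 5 months of age. In each genotype 5 mice ate a low-fat control diet and 5 ate HFD, in which fat gave 60% of the calories, for 3 months from an age of 2 months. The series was made to study what Pio, HFD and hepatocyte PPARγ do to liver gene expression.

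For each gene, the diet effect was the log2 ratio of HFD to control within a genotype. The quantity reported is the difference of the diet effects, the KO diet effect minus the WT diet effect. It is positive where HFD went with a more upward change in KO than in WT livers. WT and KO mice were deposited in a table each, and an effect of genotype on a level could not be distinguished from one of the table. Levels are therefore set side by side only within a genotype, and a factor that multiplies a gene alike on both diets of a table drops out of the difference. WT mice were plain C57BL6/J mice and not floxed littermates without Cre. The albumin promoter acts in hepatocytes, and in which other liver cells of KO mice Pparg was kept was not measured.

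PPARγ is a nuclear receptor that binds DNA together with RXR and is best known from adipocytes, where it turns on genes for fatty acid uptake and lipid storage. Healthy hepatocytes hold little of it, fatty ones more, and it then acts on storage genes such as Cidec, Plin4 and Cd36. Its relative PPARα is the main PPAR of hepatocytes and drives mitochondrial and peroxisomal fatty acid oxidation and the Cyp4a enzymes, while the sterol regulatory element-binding proteins drive cholesterol and fatty acid synthesis.

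WT libraries held 16737191 to 37098781 counts and KO libraries 21542958 to 27183558. Of the genes in both tables, 12533 had at least 1 CPM (counts scaled to library size) in at least 5 of the 20 mice and were tested. Levels below are CPM after scaling by TMM factors, and the values of a group follow the order of the mouse numbers (WT control 831 to 835, WT HFD 826 to 830, KO control 1 to 5, KO HFD 6 to 10). Errors of log2 values are standard errors (SE) worked back from the edgeR test, as the size of the log2 value over the square root of its F statistic. A gene is called where its edgeR p, adjusted over all tested genes by the Benjamini-Hochberg method, is at most 0.05.

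Pparg (ENSMUSG00000000440) was looked at first, as a check of the labels. It had 9.47, 10.7, 10.2, 5.85 and 7.16 CPM in WT control mice and 10.9, 12.7, 12.2, 8.84 and 11.7 CPM in WT HFD mice. In KO livers it had 7.77, 6.41, 3.66, 8.92 and 9.88 CPM on control diet and 7.13, 7.04, 8.46, 3.55 and 5.13 CPM on HFD. The WT HFD mice lay mostly above the WT controls with an overlap, and the KO groups covered the same range. A gene's total includes the exons outside the deleted stretch, and is no measure of the deletion. No call was made for Pparg, with a WT diet effect of 0.38 (SE 0.24), a KO diet effect of -0.23 (SE 0.25) and a difference of -0.61 (SE 0.35, adjusted p = 0.478). Ppara, the gene of the main hepatocyte PPAR, had a difference of -0.66 (SE 0.32, adjusted p = 0.412), and Rxra, the gene of the RXR most abundant in liver, one of -0.40 (SE 0.24, adjusted p = 0.504), or -0.17 without WT HFD mouse 829.

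All 6 hepatocyte markers (Alb, Ttr, Trf, Apoa1, Serpina1a and Apoc3) passed the filter, and together they made up 67864 to 145650 CPM of each WT library and 61327 to 106418 CPM of each KO library. Albumin was the most abundant of them, at a mean of 72501 CPM. Of the markers of other sources, 0 of 8 pancreas acinar, 0 of 6 skeletal muscle and 0 of 6 T and NK cell genes passed the filter, as did 4 of 8 adipocyte genes, with Adipoq, Lep, Plin1 and Retn below it. In bulk liver, fewer cells of a type and less RNA per cell cannot be told apart.

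Several libraries stood apart from their groups. The first principal component (44.0% of the variance of the tested genes) separated the 2 tables. WT control mouse 832 (-72.5) and KO HFD mouse 9 (-52.7) lay far out on the second component, and WT HFD mouse 829 (-59.2) on the third. Mouse 832 had the highest TMM factor, 1.28, with high matrix, bile duct and stress genes. KO HFD mouse 9 held 531 CPM of neutrophil markers, against 2.73 to 24.1 CPM in the other KO HFD mice, with high acute-phase genes and 45797 CPM of Alb. KO HFD mouse 10 held 677 CPM of pancreas acinar markers, and WT HFD mouse 827 held 113 CPM of adipocyte markers.

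The test of the difference of diet effects called 0 genes as higher (0% of those tested) and 0 as lower (0%) with edgeR. The smallest adjusted p was 0.0739, shared by Tmco6, Ldah and Gm4952. At an unadjusted p under 0.05 there were 1537 genes, 825 with a positive difference (6.58% of all tested) and 712 with a negative one (5.68%). The other tools gave DESeq2 52 higher and 59 lower genes, limma with sample weights 14 and 24, and limma without sample weights 0 and 0. DESeq2 and limma with weights shared 25 of the 111 and 38 genes that they called. Fitting the 4 groups together with the 20 Pio mice called 4 and 4, and the same fit without KO Pio mouse 13 called 81 and 55. Atg16l2 and Gm4952 were the 2 genes called by DESeq2, limma with weights and both of these fits. No gene is written below as changed by the difference, since edgeR called none, and each value is a description.

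Leaving out 1 mouse turned the count of 0 into a few calls in 3 of 20 fits. Without WT control mouse 831, Tmco6 (1.17) and Myo7a (0.75) were called higher and Inhbc (-1.44), Ldah (-0.74) and Gm4952 (-2.47) lower. Without KO control mouse 2, Tmco6 (1.14) and Pgd (1.29) were called higher and Ldah (-0.73), Gm4952 (-2.38) and Cyp4a10 (-4.27) lower. Without KO control mouse 3, Tmco6 (1.21) was called. The fit without the 3 libraries that stood apart, an alternative chosen after the data were seen, called Tmco6 (1.07) and Gstm4 (0.90) higher and Gm4952 (-2.06) and Hspa1b (-2.39) lower, each at an adjusted p of 0.0491.

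By edgeR the diets gave more calls in WT than in KO livers, and by limma with sample weights fewer (147 and 90 in WT, 217 and 204 in KO). DESeq2 also called more in WT than in KO livers, with 337 higher and 304 lower in WT. In WT mice 90 genes rose with HFD (0.718% of those tested) and 100 fell (0.798%), and 2268 had an unadjusted p under 0.05, 8.61% of all tested genes upward and 9.49% downward. In KO mice 5 rose (0.0399%) and 0 fell (0%) by edgeR, with 703 at an unadjusted p under 0.05 (3.3% upward and 2.31% downward), where DESeq2 called 26 and 11 and limma without sample weights 9 and 0. The WT counts moved by over 1.5 times with single mice, to 245 and 252 with mouse 831 left out of the WT controls, 27 and 30 with 833, 35 and 49 with 834, 53 and 75 with 835, and 55 and 77 with 832. Leaving out a WT HFD mouse gave 29 and 21 for mouse 828 and 59 and 62 for mouse 826. KO mice enter the shared spread, and the WT counts were 212 and 196 without KO HFD mouse 9, 57 and 70 without mouse 6, 56 and 61 without mouse 7 and 60 and 66 without KO control mouse 1. The 5 KO calls became 12 with KO control mouse 3 left out, 9 with WT control mouse 832, 3 with KO control mouse 5, and 1 without WT HFD mouse 828 or 830, WT control mouse 835 or KO HFD mouse 6. They were 0 without KO control mouse 1, 2 or 4 or KO HFD mouse 7, 8 or 10, and 1 gene was called lower without WT HFD mouse 827 or 829, KO control mouse 5 or KO HFD mouse 9. An effect that was called in WT and not in KO livers is not shown to differ between them, and the test of the difference called none.

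The 90 genes that rose in WT had a median diet effect of 0.81 there and 0.02 in KO, where 47 were positive and 43 negative. Over all tested genes the KO median was -0.01, with 47.2% positive. The 100 that fell in WT had a median of -1.02 there and -0.08 in KO, with 69 negative and 31 positive, beside 52.8% negative over all genes. Only Enho was called in both genotypes. Of the 90 and 100 genes, 72 and 88 had an unadjusted p under 0.05 for the difference, but these genes were chosen by the WT part of it, so the counts are no independent measure.

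Enho encodes adropin, a small secreted peptide of liver. It had 13, 5.66, 17.1, 14.3 and 13.8 CPM in WT control mice and 36.6, 40.1, 25.9, 21.3 and 25.2 CPM in WT HFD mice. KO mice had 5.72, 6.22, 13.3, 15.1 and 17.9 CPM on control diet and 36.3, 36.5, 40.1, 41.1 and 40.6 CPM on HFD. In either genotype every HFD mouse lay above every control mouse, and the diet effects were 1.23 (SE 0.29, adjusted p = 0.0393) in WT and 1.74 (SE 0.30, adjusted p = 0.0317) in KO. The difference was 0.51 (SE 0.41, adjusted p = 0.613), or 0.34 without KO control mouse 1. The WT call was lost without WT HFD mouse 826, 827 or 828, WT control mouse 832, 833, 834 or 835, or KO HFD mouse 6, 7, 8 or 10 (adjusted p up to 0.0756). The KO call was lost without WT HFD mouse 828 or 830, WT control mouse 835, KO control mouse 1, 2 or 4, or KO HFD mouse 6, 7, 8 or 10 (up to 0.126).

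With no overlap between 5 and 5 mice, 196 genes were higher (1.56%) and 182 lower (1.45%) on HFD in WT livers, and 180 higher (1.44%) and 229 lower (1.83%) in KO livers. Higher in both were 4 genes (0.0319%), Fpgs, Snap47, Pmm1 and Enho, and lower in both were 4 (0.0319%), Ddb1, Mettl7b, Pik3c2g and Ugt1a9. Opposite in the genotypes was 1 gene, Ldah (0.00798%), higher on HFD in WT and lower in KO, while 0 genes (0%) were opposite in the other sense.

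Ldah (ENSMUSG00000037669, chromosome 12, 8208107 to 8285759 of GRCm38) encodes a hydrolase of the lipid droplet surface. WT control mice had 40.4, 31.3, 33.1, 34.9 and 39.1 CPM and WT HFD mice 50.2, 43.4, 47.5, 45 and 47.5 CPM. KO control mice had 64.4, 53.6, 58.3, 59.3 and 53.1 CPM and KO HFD mice 49.2, 47.3, 46.7, 43.7 and 44.1 CPM. All 5 WT HFD mice were thus above all WT controls, and all 5 KO HFD mice below all KO controls. The diet effect was 0.39 (SE 0.09, adjusted p = 0.0328) in WT and -0.32 (SE 0.09, adjusted p = 0.353) in KO, and the difference -0.71 (SE 0.12, adjusted p = 0.0739). The WT call was lost without WT HFD mouse 826 or 828 or WT control mouse 832, 833 or 834 (adjusted p up to 0.0793), and the difference was called at -0.74 without WT control mouse 831 and at -0.73 without KO control mouse 2. By DESeq2, limma with sample weights and the fit of 39 mice the difference was called as well.

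Tmco6 (ENSMUSG00000006850, chromosome 18, 36735039 to 36742397), a membrane protein gene of little known function, stood at the other end. It had 5.71, 6.23, 6.49, 6.5 and 7.66 CPM in WT control and 5.79, 6.06, 5.27, 4.27 and 6.23 CPM in WT HFD mice. In KO mice it had 4.58, 5.01, 5.63, 4.32 and 3.83 CPM on control diet and 7.53, 9.88, 8.96, 8.13 and 8.46 CPM on HFD. All KO HFD mice were above all KO controls, and the WT groups overlapped. Its difference was 1.12 (SE 0.19, adjusted p = 0.0739), and its KO diet effect of 0.88 (SE 0.13, adjusted p = 0.0257) was among the 5 KO calls. That call was lost without KO control mouse 1, 2 or 4 or KO HFD mouse 7, 8 or 10 (adjusted p up to 0.124), while the difference was called without WT control mouse 831 (1.17), KO control mouse 2 (1.14) or KO control mouse 3 (1.21). Its annotation overlaps Ndufa2 on the opposite strand by 66 bases, and the counting is not stated to have used strand.

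**Figure D1:**
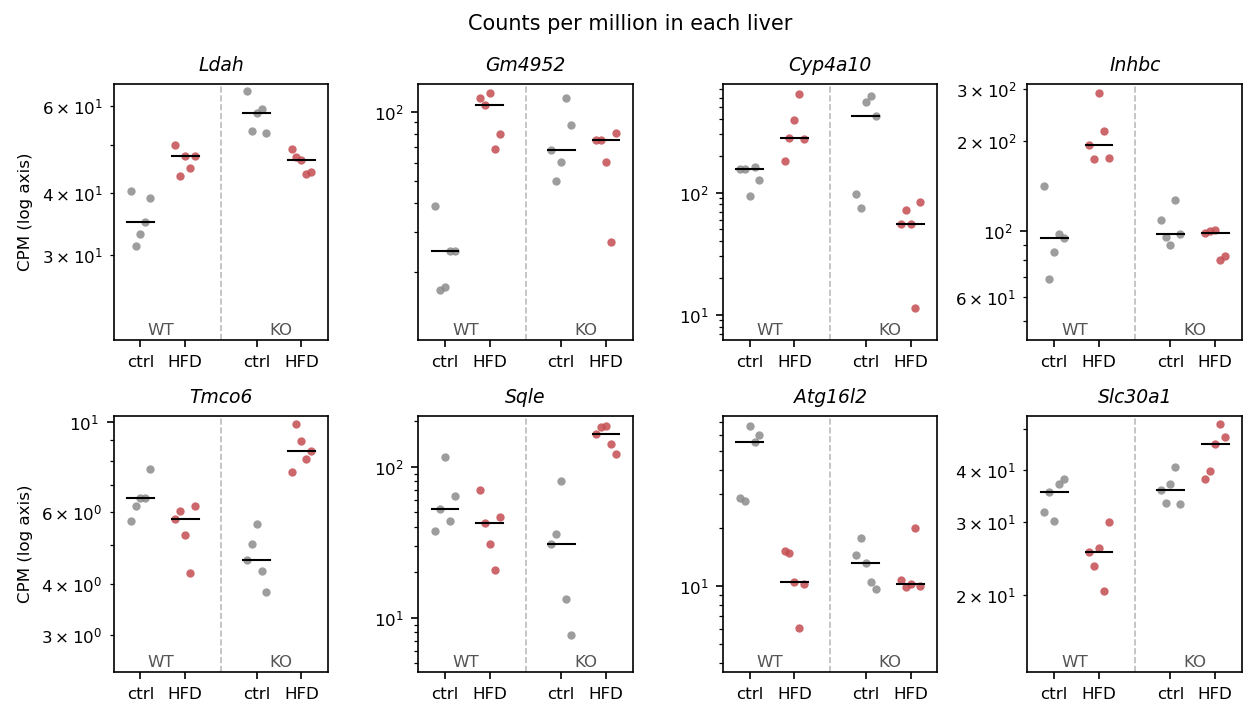
Level in CPM (log axis) of 8 genes in each of the 20 livers, grouped by genotype and diet (ctrl, control diet). Points are mice and bars are group medians. Ldah is higher on HFD in all 5 WT and lower in all 5 KO mice than in every control of the genotype, and levels are to be read within a genotype only.

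Gm4952 (ENSMUSG00000071633, chromosome 19, 12599974 to 12628251), annotated among the glycine acyltransferase-like genes, had the same adjusted p as Ldah and Tmco6. It had 38.7, 16.7, 17.2, 24.8 and 24.7 CPM in WT control mice and 114, 107, 120, 68.7 and 80.2 CPM in WT HFD mice. The KO values were 67.8, 49.6, 60.5, 115 and 87.8 CPM on control diet and 75, 75, 60.4, 27.1 and 81 CPM on HFD. WT mice separated without overlap, whereas KO mice overlapped throughout, with KO HFD mouse 9 lowest. The WT diet effect of 2.00 (SE 0.29, adjusted p = 0.00269) was called in each of the 20 fits, the KO diet effect was -0.25 (SE 0.28), and the difference was -2.26 (SE 0.40, adjusted p = 0.0739). It was called without WT control mouse 831 (-2.47) or KO control mouse 2 (-2.38).

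Cyp4a10 (ENSMUSG00000066072, chromosome 4) encodes a fatty acid omega-hydroxylase and is a classic target of PPARα. WT control mice had 157, 157, 93.7, 161 and 126 CPM and WT HFD mice 181, 282, 391, 640 and 275 CPM. KO control mice had 97, 75.1, 550, 624 and 421 CPM, and KO HFD mice 55.3, 72.4, 55.5, 11.3 and 83.4 CPM. Every WT HFD mouse exceeded every WT control. In KO livers control mice 3, 4 and 5 were high, controls 1 and 2 low, and the KO HFD mice were low, overlapping the controls through control mouse 2, with mouse 9 lowest. The diet effects of 1.35 (SE 0.53, adjusted p = 0.184) and -2.67 (SE 0.55, adjusted p = 0.120) were not called, and the difference of -4.01 (SE 0.76, adjusted p = 0.102) was called only without KO control mouse 2 (-4.27) among the fits that left out 1 mouse. Close relatives of Cyp4a10 share sequence with it, so the division of reads among them is uncertain.

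Inhbc (ENSMUSG00000025405, chromosome 10), which encodes the activin C subunit made by hepatocytes, had 142, 69.1, 84.9, 97.7 and 94.4 CPM in WT control and 195, 174, 291, 216 and 176 CPM in WT HFD mice. The KO groups had 109, 95.2, 90, 127 and 97.4 CPM on control diet and 98.4, 99.8, 101, 80.1 and 82.6 CPM on HFD. Its WT groups did not overlap and its KO groups did. The WT diet effect was 1.11 (SE 0.17, adjusted p = 0.00512), a call kept in all 20 fits, and the difference was -1.28 (SE 0.24, adjusted p = 0.102), called at -1.44 without WT control mouse 831.

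Lgals4 encodes galectin-4, a lectin better known from gut. It had 14.6, 9.31, 8.12, 12 and 10.8 CPM in WT control, 21.7, 35.7, 24.3, 40.2 and 24.7 CPM in WT HFD, 8.91, 9.48, 12.3, 18 and 18.4 CPM in KO control and 14, 8.97, 10.8, 5.94 and 11.6 CPM in KO HFD mice. WT HFD mice were all above their controls, and KO mice overlapped. The difference was -1.80 (SE 0.35, adjusted p = 0.102) and the WT effect 1.42 (SE 0.25, adjusted p = 0.00798), called in all 20 fits. Vnn3, a gene of the pantetheinase family, had a difference of -1.02 (SE 0.20, adjusted p = 0.105). Its WT effect of 0.62 (SE 0.14, adjusted p = 0.0351) lost the call without WT HFD mouse 828 or 830 or WT control mouse 832, 833, 834 or 835 (adjusted p up to 0.0876).

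Slc30a1 (ENSMUSG00000037434, chromosome 1) encodes a zinc exporter of the cell membrane. WT control mice had 31.7, 35.4, 30.1, 36.9 and 37.9 CPM and WT HFD mice 25.4, 23.5, 25.9, 20.5 and 30 CPM. KO mice had 35.7, 33.2, 36.9, 40.5 and 33.1 CPM on control diet and 37.9, 39.6, 46.2, 51.5 and 48 CPM on HFD. The WT HFD mice lay below all their controls, and 3 of the 5 KO HFD mice lay above the highest KO control with the other 2 inside the control range. Diet effects were -0.46 (SE 0.11, adjusted p = 0.0433) in WT and 0.31 (SE 0.11, adjusted p = 0.648) in KO, and the difference was 0.77 (SE 0.16, adjusted p = 0.110). The WT call held in 6 of the 20 fits, those without WT HFD mouse 830, WT control mouse 831, KO control mouse 4 or 5, or KO HFD mouse 6 or 9, and in the others the adjusted p reached 0.0840.

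Atg16l2 (ENSMUSG00000047767, chromosome 7), a relative of the autophagy gene Atg16l1, had 28.6, 27.4, 67.4, 55.6 and 60.6 CPM in WT control mice and 15.2, 14.9, 10.5, 6.06 and 10.2 CPM in WT HFD mice. KO mice had 14.5, 17.7, 13.2, 10.5 and 9.71 CPM on control diet and 10.8, 9.93, 10.3, 20 and 9.96 CPM on HFD. The WT groups were wide apart, with WT controls 831 and 832 lower than the other controls, and KO HFD mouse 9 was highest in a group that overlapped its controls. The WT effect of -2.07 (SE 0.30, adjusted p = 0.00269) was called in all 20 fits, the KO effect was -0.11 (SE 0.29), and the difference was 1.97 (SE 0.41, adjusted p = 0.110). Arpin, which encodes an inhibitor of the Arp2/3 complex, had a difference of 1.12 (SE 0.24, adjusted p = 0.130), Ano10 one of 1.01 (SE 0.22, adjusted p = 0.134) and the kinase gene Map3k13 one of 1.12 (SE 0.25, adjusted p = 0.134). In WT livers Arpin (-0.79, adjusted p = 0.0277) and Ano10 (-0.78, adjusted p = 0.0203) were lower on HFD. Arpin lost that call without WT HFD mouse 826 or 828 or WT control mouse 832, 833 or 834 (up to 0.0795), and Ano10 without WT HFD mouse 828 or WT control mouse 833 (up to 0.0608). The KO effect of Map3k13 was 0.89 (adjusted p = 0.104) and was called without WT control mouse 832 (adjusted p = 0.0194). Atg16l2 and Slc30a1 overlap the tested genes Fchsd2 and 1700034H15Rik on the opposite strand, and Map3k13 overlaps 1300002E11Rik on its own strand.

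The diet effect on cholesterol synthesis genes leaned upward in KO relative to WT livers, and that on fatty acid oxidation genes downward. All 25 genes of cholesterol synthesis and uptake were tested. Their median difference was 1.47, beside 0.01 over all 12533 genes, and 18 had a positive difference at an unadjusted p under 0.05 (6.58% of all genes did) while 0 had a negative one. The median diet effect was -0.02 in WT and 1.16 in KO, where 25 of 25 were positive and 3 (Hmgcs1, Mvk and Hsd17b7) were called (0.0399% of all genes were). Over all settings that were tried, the median difference ran from 1.31 to 1.73 and the count from 16 to 22. For the difference, edgeR with the 20 mice called 0 members, DESeq2 6 (Sqle, Dhcr7, Fdps, Lss, Hsd17b7 and Pmvk), limma with sample weights Hsd17b7 and Lss, the fit of 40 mice Sqle, and that of 39 mice the 6 of DESeq2 with Hmgcs1 and Insig1.

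Sqle encodes squalene epoxidase, a rate-limiting step of the sterol branch. It had 37.6, 52.7, 116, 43.5 and 63.9 CPM in WT control and 69.8, 42.5, 30.8, 20.8 and 46.3 CPM in WT HFD mice. KO control mice had 31, 36, 79.9, 13.4 and 7.66 CPM and KO HFD mice 164, 184, 186, 142 and 121 CPM. All KO HFD mice exceeded all KO controls, among which mouse 3 was highest and mice 4 and 5 lowest, and the WT groups overlapped with WT control mouse 833 on top. The KO effect was 2.25 (SE 0.47, adjusted p = 0.121) and the difference 2.82 (SE 0.65, adjusted p = 0.134). Without KO control mouse 3 the KO effect was 2.88 and was called (adjusted p = 0.00733).

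Hmgcs1, the cytosolic synthase that feeds the mevalonate pathway, had 146, 121, 320, 178 and 196 CPM in WT control and 446, 317, 245, 133 and 243 CPM in WT HFD mice. KO mice had 132, 166, 258, 103 and 58.3 CPM on control diet and 858, 821, 938, 342 and 549 CPM on HFD. The KO groups did not overlap and the WT groups did. Its KO effect was 2.29 (SE 0.38, adjusted p = 0.0317), its WT effect 0.53 (SE 0.37) and the difference 1.76 (SE 0.52, adjusted p = 0.207). Mvk, mevalonate kinase, rose in KO livers by 1.78 on the log2 scale (SE 0.30, adjusted p = 0.0317), with a WT effect of 0.70 and a difference of 1.07 (SE 0.42, adjusted p = 0.325). Hsd17b7, a later enzyme of the pathway, rose by 1.44 (SE 0.26, adjusted p = 0.0441), with a WT effect of -0.02 and a difference of 1.46 (SE 0.36, adjusted p = 0.170).

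The KO calls of Hmgcs1 and Mvk were lost without WT HFD mouse 828 or 830, WT control mouse 835, KO control mouse 1, 2, 4 or 5, or KO HFD mouse 6, 7, 8 or 10, with an adjusted p up to 0.186. That of Hsd17b7 was lost in the same fits and without WT HFD mouse 829 or WT control mouse 831 or 834, with an adjusted p up to 0.216. Without KO control mouse 1, 2 or 4 or KO HFD mouse 7, 8 or 10, edgeR called 0 genes in KO livers at all, where the unadjusted count was 497 to 693. The direction held in each of these fits.

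Dhcr7, the last reductase of cholesterol synthesis, had 163, 114, 341, 167 and 192 CPM in WT control, 175, 145, 124, 197 and 151 CPM in WT HFD, 61.3, 82, 108, 30.6 and 41.2 CPM in KO control and 197, 200, 215, 175 and 143 CPM in KO HFD mice. The KO diets separated and the WT diets overlapped. The difference for Dhcr7 was 1.82 (SE 0.41, adjusted p = 0.134), and the KO effect of 1.52 (adjusted p = 0.0877) was called without WT control mouse 832 (adjusted p = 0.0383), WT control mouse 833 (0.0279) or KO control mouse 3 (0.0102). Lss, lanosterol synthase, had a difference of 1.70 (SE 0.43, adjusted p = 0.189), and Fdps, farnesyl diphosphate synthase, one of 2.36 (SE 0.61, adjusted p = 0.192). Srebf2, which encodes the regulator of these genes, had 0.46 (SE 0.28, unadjusted p = 0.107).

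**Figure D2:**
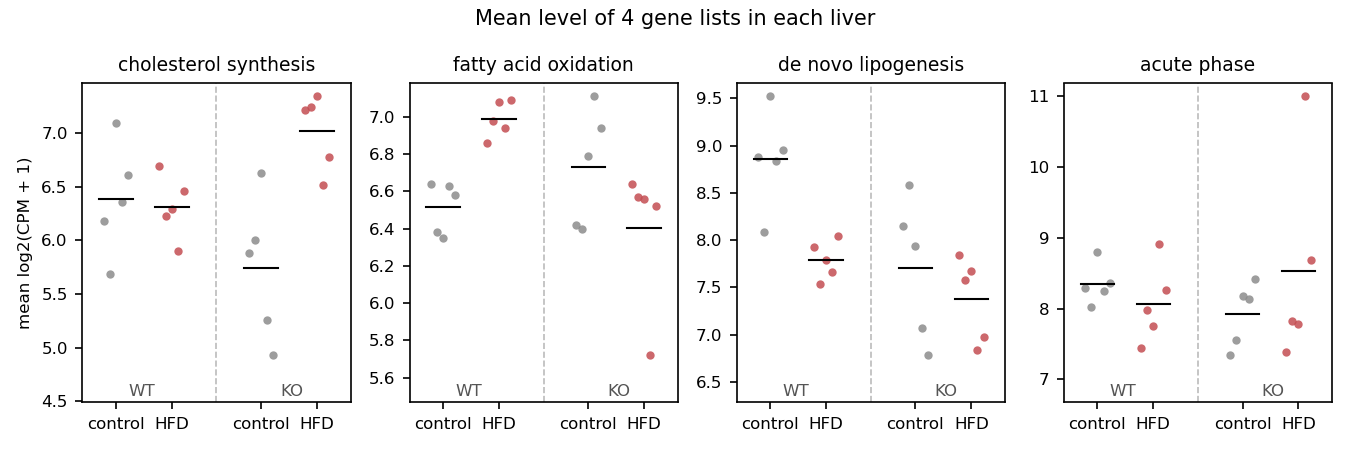
Mean level of 4 gene lists in each of the 20 livers, as the mean of log2(CPM + 1) over the tested members. Points are mice and bars are group means. Cholesterol synthesis levels in KO livers are 6.52 to 7.34 on HFD and 4.93 to 6.63 on control diet, and KO HFD mouse 9 stands alone in acute-phase genes (11.0) and is lowest in fatty acid oxidation (5.72).

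As a group, the mean level of the 25 cholesterol genes, in log2(CPM + 1), was 6.18, 5.69, 7.09, 6.36 and 6.61 in WT control and 6.69, 6.23, 6.29, 5.90 and 6.46 in WT HFD mice. It was 5.88, 6.00, 6.63, 5.26 and 4.93 in KO control and 7.21, 7.24, 7.34, 6.52 and 6.78 in KO HFD mice. The KO controls were uneven, with mice 4 and 5 low and mouse 3 as high as the lower KO HFD mice, while the WT diets covered the same range.

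De novo lipogenesis, the making of fatty acids from sugar, had 24 genes, all tested, with a median difference of 0.55 and 6 positive and 0 negative members at an unadjusted p under 0.05 (6.58% and 5.68% of all genes were). In WT livers the median was -1.02, and 7 were called lower (0.798% of all genes were): Acly, Acacb, Elovl5, Elovl6, Scd1, Pnpla3 and Acss2. Without WT HFD mouse 828 there were 2, and 4 without mouse 826, 827 or 829, and of the WT controls mouse 833 left 2 and mouse 834 left 3 when removed. Over all genes the count called lower in WT livers moved too, from 100 to 21 without WT HFD mouse 828. It was 62 without mouse 826, 78 without 827, 97 without 829, 30 without WT control mouse 833 and 49 without 834. In KO livers the median was -0.50 and 0 were called by edgeR. At an unadjusted p under 0.05 there were 5, all negative (2.31% of all genes were). The median was -0.17 with 1 at that p without KO control mouse 2, and -0.69 with 9 without mouse 5. The median difference ran from 0.39 to 0.77 over all settings.

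Acacb, the acetyl-CoA carboxylase of the mitochondrial surface, had 391, 196, 908, 456 and 562 CPM in WT control and 89.9, 59.1, 43.5, 60.3 and 90.1 CPM in WT HFD mice. The KO values were 142, 297, 126, 40.9 and 27.3 CPM on control diet and 99.3, 77.9, 87, 108 and 53.2 CPM on HFD. WT diets were far apart, with WT control mouse 833 highest. KO controls 4 and 5 were below all KO HFD mice and controls 1, 2 and 3 above them. The WT effect was -2.87 (SE 0.51, adjusted p = 0.00843), a call kept in all 20 fits, and the difference was 2.30 (SE 0.68, adjusted p = 0.203).

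Acss2, which makes acetyl-CoA from acetate, had 298, 129, 880, 432 and 466 CPM in WT control, 145, 105, 145, 140 and 160 CPM in WT HFD, 144, 222, 150, 70.1 and 49 CPM in KO control and 242, 189, 241, 101 and 128 CPM in KO HFD mice. Both genotypes overlapped, in WT only through control mouse 832. The difference was 2.17 (SE 0.58, adjusted p = 0.192). Its WT effect of -1.67 (adjusted p = 0.0484) held its call in 6 of the 20 fits, those without WT control mouse 831 or 832, KO control mouse 2, 4 or 5 or KO HFD mouse 9, and the adjusted p reached 0.128 without WT control mouse 833. Acss2 overlaps Gss on the opposite strand over 22544 bases.

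Pnpla3, a lipid droplet protein that follows carbohydrate intake, had 45.4, 14, 170, 23.8 and 36.7 CPM in WT control and 3.26, 3.15, 1.76, 1.24 and 2.42 CPM in WT HFD mice. KO mice had 4.14, 11.8, 1.39, 0.766 and 0.487 CPM on control diet and 1.38, 0.915, 0.73, 0.797 and 0.667 CPM on HFD. WT diets separated by a wide gap, and KO controls 1 and 2 were well above all KO HFD mice, control 3 just above and controls 4 and 5 among or below them. The WT effect was -4.60 (SE 0.78, adjusted p = 0.00798), called in all 20 fits, and the difference 2.55 (SE 1.09, adjusted p = 0.363), or 1.63 without WT control mouse 833. Scd1, the stearoyl-CoA desaturase of liver, leaned down in both genotypes, at -2.52 (SE 0.54, adjusted p = 0.0269) in WT and -1.64 (SE 0.53, adjusted p = 0.594) in KO, with a difference of 0.88 (SE 0.73). The WT call of Scd1 was lost without WT HFD mouse 828 or WT control mouse 833 or 834 (up to 0.0771).

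Acly, ATP citrate lyase, had a WT effect of -1.95 (SE 0.45, adjusted p = 0.0351) and a difference of 1.64 (SE 0.62, adjusted p = 0.307). Elovl5, a fatty acid elongase, had a WT effect of -1.40 (adjusted p = 0.0286), a fall, with a difference of 1.03 (SE 0.43). Elovl6, its relative, fell by 1.68 (adjusted p = 0.0479) with a difference of 0.66 (SE 0.58), or 0.37 without WT control mouse 833 and 0.41 without KO control mouse 5. The call of Acly was lost without WT HFD mouse 826, 827, 828 or 829 or WT control mouse 833, 834 or 835 (up to 0.0976), and that of Elovl5 without WT HFD mouse 828 or WT control mouse 833 or 834 (up to 0.0802). That of Elovl6 held only without WT control mouse 831, KO control mouse 2, 4 or 5 or KO HFD mouse 9 and otherwise reached 0.117. Fasn, fatty acid synthase, had -1.79 in WT and -0.61 in KO livers (difference 1.18, SE 0.75, adjusted p = 0.520). Srebf1, which encodes a regulator of these genes, had a difference of 0.11 (SE 0.40) that turned negative in 5 of the fits that left out 1 mouse, without WT control mouse 831, KO control mouse 4 or 5 or KO HFD mouse 6 or 8 (down to -0.06).

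Chrna4, a nicotinic receptor subunit gene, had 74.1, 65.9, 575, 94.6 and 109 CPM in WT control and 13.1, 8.56, 4.52, 2.63 and 16.9 CPM in WT HFD mice. KO mice had 11.7, 35.3, 5.63, 0.405 and 0.348 CPM on control diet and 16.3, 9.24, 12.7, 3.23 and 1.88 CPM on HFD. All WT HFD mice lay below the WT controls, of which mouse 833 was far the highest, and KO controls spread over both sides of the KO HFD mice. The difference was 4.02 (SE 1.32, adjusted p = 0.255). Its WT effect was -4.32 (SE 1.01, adjusted p = 0.0382), lost as a call without any 1 WT HFD mouse, WT control mouse 832, 833 or 834, KO control mouse 1 or KO HFD mouse 7 (up to 0.0976). Lepr, the leptin receptor gene, fell in WT livers by 2.40 (SE 0.44, adjusted p = 0.0102), a call kept in all 20 fits, beside -1.68 in KO livers (SE 0.41, adjusted p = 0.246) and a difference of 0.73 (SE 0.58), which was 0.41 without WT control mouse 833. Without KO HFD mouse 9 the difference was 0.19 and the KO effect was called at -2.21. That mouse had 11 CPM, above the 2.5 to 4.75 CPM of the other KO HFD mice.

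Of 41 fatty acid oxidation and PPARα target genes, all tested, 40 had a negative difference, 26 of them at an unadjusted p under 0.05 (5.68% of all genes did), and the median was -0.62. In WT livers the median diet effect was 0.48, 25 members were positive at that p (8.61% of all genes were), and 4 were called higher (0.718% of all genes were), Slc25a20, Acadm, Crat and Pex11a. The calls were 14 without KO HFD mouse 9, 9 without WT control mouse 831, 2 without 832 or 834, 1 without WT HFD mouse 828 and 0 without WT control mouse 833. The count over all genes moved with the same mice. From 90 it went to 212 without KO HFD mouse 9 and 245 without WT control mouse 831. It was 55 without WT control mouse 832, 35 without 834, 29 without WT HFD mouse 828 and 27 without WT control mouse 833. In KO livers the median was -0.19 (-0.04 without mouse 9), 39 of 41 were negative, and 0 were called by edgeR, with 5 lower at an unadjusted p under 0.05 (2.31% of all genes were). Over all settings the median difference stayed between -0.73 and -0.44, and it was -0.49 without KO HFD mouse 9, which was the lowest KO HFD mouse in this group. The 6 hepatocyte markers had medians of -0.48 for the difference and 0.36 in WT livers.

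Acadm, the medium-chain acyl-CoA dehydrogenase, had 173, 131, 118, 154 and 154 CPM in WT control and 251, 258, 216, 276 and 269 CPM in WT HFD mice. KO mice had 226, 202, 289, 344 and 298 CPM on control diet and 257, 251, 244, 134 and 250 CPM on HFD. The WT diets separated, and the KO diets overlapped with mouse 9 lowest. The WT effect was 0.80 (SE 0.17, adjusted p = 0.0285), lost as a call without WT control mouse 832, 833 or 834 (up to 0.0737). The KO effect was -0.26 (SE 0.17) and the difference -1.06 (SE 0.25, adjusted p = 0.134).

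Slc25a20, the carnitine carrier of mitochondria, had 60.9, 47.3, 44.4, 71.1 and 68.5 CPM in WT control, 95.2, 99.1, 102, 90.4 and 103 CPM in WT HFD, 84.7, 73, 88, 119 and 94.5 CPM in KO control and 96.9, 96, 97.5, 64.1 and 89.8 CPM in KO HFD mice. It too separated WT and not KO mice, and its difference was -0.79 (SE 0.21, adjusted p = 0.192). Its WT effect of 0.75 (adjusted p = 0.0203) lost the call without WT HFD mouse 828 (0.0501) or WT control mouse 833 (0.0589). Pex11a, a peroxisome division gene under PPARα, had a difference of -0.88 (SE 0.22, adjusted p = 0.182) and a WT effect of 0.77 (adjusted p = 0.0203), lost without WT HFD mouse 828 (0.0532) or WT control mouse 833 (0.0611). Crat, carnitine acetyltransferase, had a difference of -1.06 (SE 0.31, adjusted p = 0.202) and a WT effect of 0.93 (adjusted p = 0.0393). That call was lost without WT HFD mouse 826, 827, 828 or 829, WT control mouse 832, 833, 834 or 835 or KO HFD mouse 7 (up to 0.0976).

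Cpt1a, which encodes the enzyme that commits fatty acids to the mitochondrion, had a WT effect of 0.61 (SE 0.16, adjusted p = 0.0516) and a difference of -0.71 (SE 0.22, adjusted p = 0.226). The WT effect of Cpt1a was called without WT HFD mouse 829, WT control mouse 831, KO control mouse 2 or 5 or KO HFD mouse 9 (down to 0.0179). As a group, the mean level of the 41 genes was 6.64, 6.38, 6.35, 6.63 and 6.58 in WT control, 6.86, 6.98, 7.08, 6.94 and 7.09 in WT HFD, 6.42, 6.40, 6.79, 7.11 and 6.94 in KO control and 6.64, 6.57, 6.56, 5.72 and 6.52 in KO HFD mice, in log2(CPM + 1). WT diets did not overlap at this level. KO controls 1 and 2 lay below 4 of the 5 KO HFD mice and controls 3, 4 and 5 above all of them, so the KO diets overlapped.

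Of 33 lipid droplet genes and known PPARγ targets 29 were tested, with a median difference of -0.24, 5 negative (5.68% of all genes were) and 0 positive members at an unadjusted p under 0.05, and a range of medians over all settings of -0.34 to -0.14. The WT median was 0.23, with Plin4, Gpd1 and Acsl1 called higher (0.718% of all genes were). The KO median was -0.06 with 0 called by edgeR and 2 lower at an unadjusted p under 0.05 (2.31% of all genes were). The 4 tested adipocyte markers (Cfd, Lipe, Fabp4 and Adrb3) had medians of 0.45 in WT and 0.49 in KO livers. Cfd and Fabp4 are also exemplar genes of the study for PPARγ in liver. In WT HFD mouse 827 they held 37.9 and 37.1 CPM of a marker sum of 113 CPM. The sum therefore cannot tell RNA of adipocytes from these genes in hepatocytes. Plin4, a coat protein of lipid droplets, had 17.1, 24, 16.4, 19.9 and 18.8 CPM in WT control and 26.5, 62.6, 30.3, 46.8 and 37.3 CPM in WT HFD mice. In KO mice it had 5.32, 6.26, 8.91, 11.7 and 8.42 CPM on control diet and 5.95, 5.53, 4.07, 7.85 and 4.71 CPM on HFD. WT HFD mice were all above the WT controls, with mouse 827, the library rich in adipocyte markers, highest, and KO mice overlapped. The difference was -1.61 (SE 0.33, adjusted p = 0.110), and the WT effect of 1.08 (SE 0.23, adjusted p = 0.0259) lost its call without WT control mouse 833 (0.0637) or 834 (0.0524). Plin4 and Hdgfl2 overlap on opposite strands by 17 bases.

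Gpd1, which makes glycerol 3-phosphate for triglycerides, had a WT effect of 0.79 (SE 0.19, adjusted p = 0.0432) and a difference of -1.10 (SE 0.27, adjusted p = 0.167). Acsl1, the main long-chain acyl-CoA synthetase of liver, had 947, 416, 673, 781 and 660 CPM in WT control, 1441, 1192, 1528, 1679 and 1454 CPM in WT HFD, 920, 805, 837, 1039 and 1039 CPM in KO control and 1092, 1072, 1066, 414 and 1357 CPM in KO HFD mice. Except for mouse 9, the KO HFD mice were above the KO controls as well. Its WT effect was 1.07 (SE 0.24, adjusted p = 0.0325), its KO effect 0.11 (SE 0.24) and the difference -0.96 (SE 0.34, adjusted p = 0.278). The KO effect ran from -0.03 to 0.32 with 1 mouse left out. The call of Acsl1 was lost without WT HFD mouse 826 or 828 or WT control mouse 832, 833, 834 or 835 (up to 0.0750). That of Gpd1 held only without WT HFD mouse 827, WT control mouse 831, KO control mouse 4 or 5 or KO HFD mouse 8 or 9 and otherwise reached 0.0976.

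The other exemplar genes of the study gave small or uneven differences. Cd36, a fatty acid transporter, had -0.08 (SE 0.52), Cidec, which enlarges lipid droplets, -0.12 (SE 0.64), Fabp4, an adipocyte fatty acid binding protein, 0.05 (SE 0.74), and Cav1, caveolin 1, 0.30 (SE 0.41), from 0.08 without WT HFD mouse 829 to 0.59 without 826. The value of Cd36 turned positive without WT HFD mouse 829 or 830, WT control mouse 833 or 834, KO control mouse 5 (0.40) or KO HFD mouse 6 or 7. That of Cidec turned positive without WT HFD mouse 827 (0.12) or 829, any WT control mouse but 832, or KO control mouse 5. In the other direction it reached -1.07 with 1 mouse left out. That of Fabp4 turned negative without any WT HFD mouse but 827, WT control mouse 834, KO control mouse 3 or 4 or KO HFD mouse 9 (-0.61). Cidec had 45.8 CPM in WT control mouse 832 and 6.78 to 9.46 CPM in the other WT controls. Cfd, adipsin, had a difference of -1.79 (SE 1.18, adjusted p = 0.534), or -0.47 without WT HFD mouse 827, which had 37.9 CPM against 3.03 to 6.30 CPM in the other WT HFD mice. Mogat1 did not pass the filter, at 0.0841 to 2.23 CPM.

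Of 31 tested P450 and regulator genes 26 had a negative difference, 10 of them at an unadjusted p under 0.05 (5.68% of all genes did), and the median was -0.75 (-0.87 to -0.40 over all settings, 7 at that p without KO HFD mouse 9). Cyp2a12 and Nr1i3 were called higher in WT livers (0.718% of all genes were). Medians of the 6 hepatocyte markers were -0.48 for the difference and 0.36 in WT livers. Cyp2a12, a steroid and bile acid hydroxylase, had 308, 291, 288, 336 and 296 CPM in WT control, 463, 458, 570, 596 and 407 CPM in WT HFD, 394, 358, 300, 449 and 474 CPM in KO control and 355, 354, 340, 211 and 377 CPM in KO HFD mice. WT diets were well apart and KO diets overlapped. The difference was -0.99 (SE 0.22, adjusted p = 0.134), and the WT effect of 0.72 (adjusted p = 0.0298) was lost as a call without WT HFD mouse 828 or WT control mouse 833 or 835 (up to 0.0789).

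Nr1i3 encodes CAR, the receptor that switches on many drug-metabolising genes. It had 73, 18.6, 27.5, 51.2 and 67.5 CPM in WT control, 149, 93.2, 256, 242 and 166 CPM in WT HFD, 83.7, 63.3, 165, 174 and 67.1 CPM in KO control and 111, 109, 132, 26.2 and 137 CPM in KO HFD mice. WT HFD mice were all higher than WT controls, and the KO diets overlapped. The difference was -2.03 (SE 0.61, adjusted p = 0.218), and the WT effect of 1.93 (SE 0.44, adjusted p = 0.0351) lost the call without WT HFD mouse 828 or 829 or WT control mouse 832, 833 or 834 (up to 0.0846). Nr1i3 overlaps Tomm40l on the opposite strand. Cyp2d26 had a difference of -1.04 (SE 0.32, adjusted p = 0.223), and Cyp2b9, a target of CAR and a gene with close relatives, one of -5.75 (SE 1.94, adjusted p = 0.262), in which WT HFD mouse 829 (190 CPM) and KO control mouse 3 (48 CPM) were extreme, and which was -2.63 without the latter.

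Among the 27 genes of bile acid synthesis and transport the median difference was -0.31 (-0.20 without KO HFD mouse 9). At an unadjusted p under 0.05, 2 were negative (5.68% of all genes were). The medians were 0.32 in WT and -0.06 in KO livers, the latter turning to 0.03 without KO HFD mouse 9. Cyp7a1, the rate-limiting enzyme of bile acid synthesis, had 7.74, 7.93, 18.9, 10.6 and 9.26 CPM in WT control, 61.3, 65.1, 22.4, 42.3 and 66.8 CPM in WT HFD, 120, 57, 281, 62.8 and 140 CPM in KO control and 150, 317, 346, 50.5 and 146 CPM in KO HFD mice. It rose in every WT HFD mouse relative to all WT controls and varied widely in KO mice on both diets. The WT effect was 2.25 (SE 0.49, adjusted p = 0.0292) and the difference -1.64 (SE 0.67, adjusted p = 0.341). That call was lost without WT HFD mouse 826 or WT control mouse 832, 834 or 835 (up to 0.0689). Nr1h4, which encodes the bile acid receptor FXR, had a difference of -0.76 (SE 0.24, adjusted p = 0.233). Its WT effect of 0.65 (adjusted p = 0.0570) was called without WT HFD mouse 829 (0.0320), WT control mouse 831 (0.0402) or KO HFD mouse 9 (0.0280).

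Of 28 amino acid genes 1 was called higher and 2 lower in WT livers (0.718% and 0.798% of all genes were). The median difference was -0.05, positive (0.01 to 0.03) without WT HFD mouse 830, WT control mouse 831, 832 or 833, KO control mouse 3 or 5 or KO HFD mouse 9. At an unadjusted p under 0.05, 3 were positive and 1 negative (6.58% and 5.68% of all genes were). Bhmt, which remethylates homocysteine with betaine, had 72.2, 120, 124, 121 and 147 CPM in WT control and 305, 302, 386, 361 and 324 CPM in WT HFD mice. It had 449, 459, 894, 262 and 413 CPM in KO control and 445, 586, 524, 435 and 527 CPM in KO HFD mice. All WT HFD mice were far above the highest WT control, and KO mice overlapped. The WT effect of 1.52 (SE 0.24, adjusted p = 0.00512) held its call in all 20 fits, the KO effect was 0.02 (SE 0.23), and the difference was -1.50 (SE 0.33, adjusted p = 0.134).

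Got1, the cytosolic aspartate aminotransferase, went the other way, with 293, 293, 605, 393 and 402 CPM in WT control, 93.8, 162, 108, 128 and 190 CPM in WT HFD, 285, 354, 285, 163 and 396 CPM in KO control and 278, 259, 216, 426 and 211 CPM in KO HFD mice. WT diets separated and KO diets mixed. The WT effect was -1.54 (SE 0.26, adjusted p = 0.00798), a call kept in all 20 fits, and the difference 1.45 (SE 0.37, adjusted p = 0.184). Tat, tyrosine aminotransferase, fell in WT livers by 1.06 (SE 0.21, adjusted p = 0.0189), a call lost without WT HFD mouse 828 (0.0618), and had a difference of 1.07 (SE 0.30, adjusted p = 0.194). Cps1, the entry enzyme of the urea cycle, fell in WT livers by 0.73 (adjusted p = 0.0312) with a difference of 0.62 (SE 0.23), and lost its call without WT HFD mouse 826, 827 or 828 or WT control mouse 833, 834 or 835 (up to 0.0789).

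Sds, serine dehydratase, belongs to the 30 genes of glucose metabolism and insulin signalling together with Tat, and these were the 2 that fell in WT livers there (0.798% of all genes did). Sds had a WT effect of -1.06 (SE 0.26, adjusted p = 0.0430) and a difference of 0.88 (SE 0.36, adjusted p = 0.345). The call of Sds held only without WT HFD mouse 827 or 829, WT control mouse 831 or 832, KO control mouse 4 or 5 or KO HFD mouse 9 or 10 and otherwise reached 0.103, and Tat lost its call without WT HFD mouse 828 (0.0618). The median difference of the list was 0.00, with a range of -0.05 to 0.11 over all settings. At an unadjusted p under 0.05, 5 were positive and 2 negative (6.58% and 5.68% of all genes were), and 2 and 2 without KO HFD mouse 9. Igfbp1, an insulin-repressed secreted protein, had a difference of 2.46 (SE 0.95, adjusted p = 0.323), resting on high values in WT control mice 832 (775 CPM) and 833 (1577 CPM) and in KO HFD mouse 9 (913 CPM).

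Pgd and G6pdx make NADPH in the pentose phosphate pathway. Pgd had 106, 123, 172, 106 and 122 CPM in WT control, 57.1, 49.8, 61.1, 59.8 and 64.1 CPM in WT HFD, 46.1, 66.5, 42.5, 30.3 and 29 CPM in KO control and 45.2, 41.5, 42.1, 47.1 and 34.6 CPM in KO HFD mice. WT diets did not overlap and KO diets did. The WT effect of -1.11 (SE 0.19, adjusted p = 0.00786) kept its call in all 20 fits, and the difference of 1.08 (SE 0.26, adjusted p = 0.162) was called at 1.29 without KO control mouse 2. G6pdx had a WT effect of -1.79 (SE 0.38, adjusted p = 0.0259), lost as a call without WT HFD mouse 828 (0.0687) or WT control mouse 833 (0.0678), and a difference of 2.12 (SE 0.54, adjusted p = 0.182). It overlaps Ikbkg on the opposite strand over its full length. These were the 2 genes called lower in WT (0.798% of all genes were) among 20 tested NRF2 and antioxidant genes. The median difference of the 20 was 0.13, with 5 positive and 2 negative at an unadjusted p under 0.05 (6.58% and 5.68% of all genes were). Without KO HFD mouse 9, 2 members were called higher and 4 lower in WT livers. In that fit 212 and 196 of all 12482 tested genes were called, up from 90 and 100.

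Of the conjugation enzymes 43 of 72 were tested, with a median difference of -0.21, which limma with weights turned to 0.03. At an unadjusted p under 0.05 there were 1 positive and 3 negative members (6.58% and 5.68% of all genes were). Without KO HFD mouse 9 these were 3 and 1, with a median of -0.08. Without WT control mouse 832 they were 2 and 1, with a median of -0.07. Gstm3, a glutathione transferase, had 115, 638, 216, 130 and 75.1 CPM in WT control, 30.2, 28.6, 25.9, 64.7 and 31.2 CPM in WT HFD, 24.1, 30.8, 30.9, 12.1 and 21.2 CPM in KO control and 29.9, 26.3, 27.8, 16.6 and 18.1 CPM in KO HFD mice. It fell in WT livers by 2.70 (SE 0.47, adjusted p = 0.00798), and its difference was 2.69 (SE 0.64, adjusted p = 0.154). The WT call was kept in all 20 fits, with effects from -3.02 to -1.89. WT control mouse 832 was far the highest, and without it the WT diets still did not overlap.

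**Figure D3:**
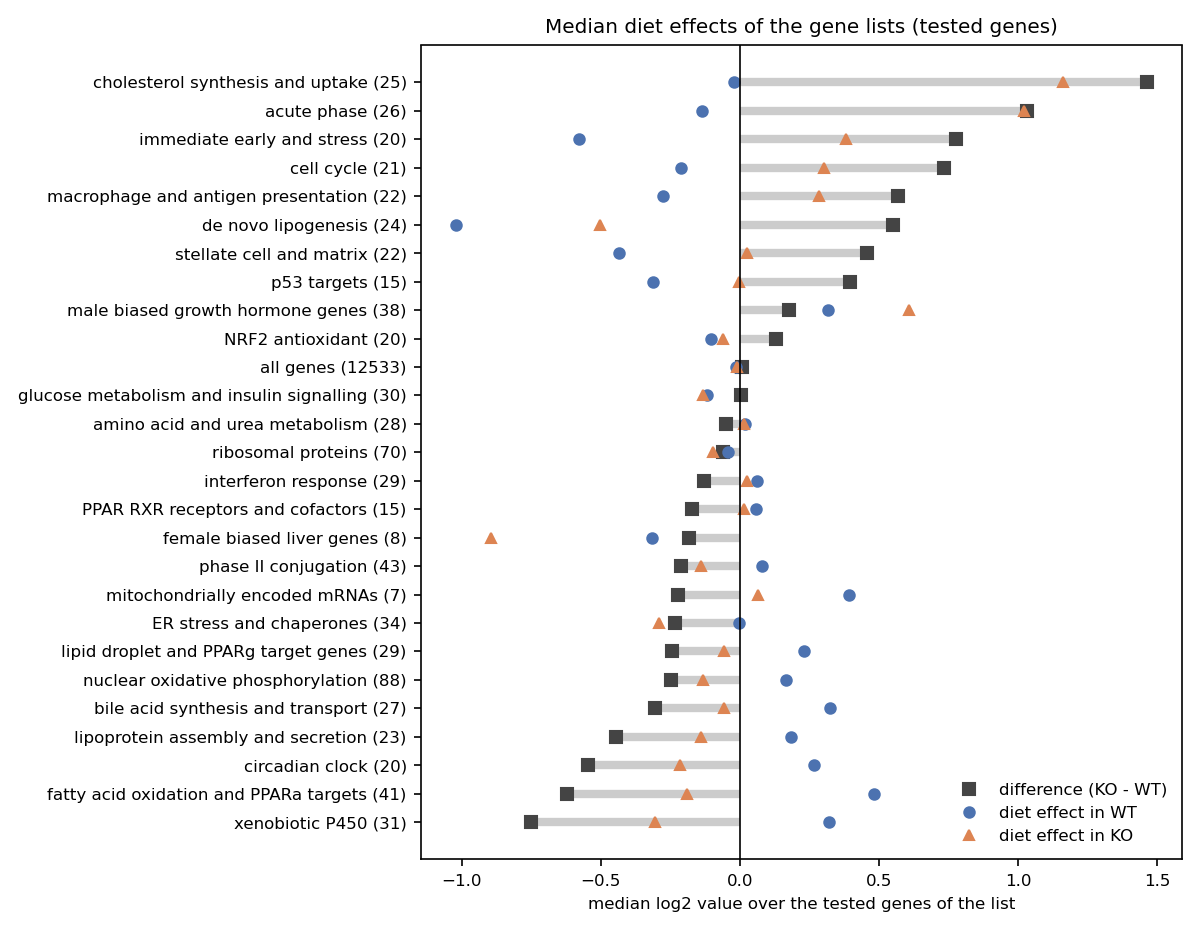
Median log2 value over the tested genes of each list, for the diet effect in WT livers (circles), in KO livers (triangles) and their difference (squares), with the number of tested genes in brackets. The difference is 1.47 for cholesterol synthesis and -0.75 for xenobiotic P450 genes, beside 0.01 over all 12533 genes.

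Lipoprotein genes had a median difference of -0.44 over 23 members, or -0.23 without WT control mouse 832. Of these 5 were negative and 2 positive at an unadjusted p under 0.05 (5.68% and 6.58% of all genes were), and 5 and 0 without KO HFD mouse 9 or WT HFD mouse 829. Apoc2, the activator of lipoprotein lipase, had 388, 247, 313, 245 and 288 CPM in WT control, 278, 439, 224, 542 and 310 CPM in WT HFD, 327, 295, 299, 240 and 486 CPM in KO control and 192, 198, 181, 172 and 181 CPM in KO HFD mice. Every KO HFD mouse lay below all KO controls, and the WT diets overlapped. The KO effect was -0.83 (SE 0.21, adjusted p = 0.302), the WT effect 0.28 (SE 0.21) and the difference -1.11 (SE 0.30, adjusted p = 0.192).

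Clock genes leaned in both directions, with 0 called by edgeR. Of 20 members 3 were positive and 4 negative at an unadjusted p under 0.05 (6.58% and 5.68% of all genes were). The median difference was -0.55 (-0.61 to -0.08 over all settings, -0.30 without WT HFD mouse 829). Without the 3 libraries that stood apart it was -0.21, with 0 and 1 at that p. Per2, a repressor of the clock, had 47.7, 22.3, 34.4, 18.1 and 29.8 CPM in WT control, 36.9, 22.6, 34.8, 95 and 37.4 CPM in WT HFD, 51.5, 41.1, 54.6, 42.9 and 24.9 CPM in KO control and 24.7, 27.1, 30.1, 15.9 and 19.3 CPM in KO HFD mice. WT HFD mouse 829 was far above the rest, and the groups overlapped in both genotypes. Its difference was -1.45 (SE 0.46, adjusted p = 0.233). Hlf, an output factor of the clock, had -1.18 (SE 0.42, adjusted p = 0.284), and Arntl, its activator, 1.23 (SE 0.46, adjusted p = 0.307), or 0.76 without KO HFD mouse 9. The hour at which each liver was taken is not given in the labels.

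Acute-phase genes were high in KO HFD mouse 9. These 26 genes had a median difference of 1.03, with 8 positive and 0 negative at an unadjusted p under 0.05 (6.58% and 5.68% of all genes were), and 0.09 with 2 and 0 without that mouse. Orm2, an orosomucoid with close relatives, had 11.2, 14.6, 17.5, 17.3 and 15.9 CPM in KO control and 6.56, 8.28, 16, 2825 and 92.7 CPM in KO HFD mice. Lcn2, lipocalin 2, had 3.79, 5.76, 25.6, 23.7 and 49.7 CPM and 5.86, 13.2, 14.8, 2738 and 108 CPM in the same groups. KO HFD mouse 9 was far above all others for both, mouse 10 came next, and the remaining KO HFD mice were within or below the controls. The differences were 6.45 for Orm2 (SE 1.72, adjusted p = 0.192), 5.73 for Lcn2 (SE 1.84, adjusted p = 0.245) and 3.25 for Apcs (SE 1.11), which had 887 CPM in mouse 9. Without it they were 2.21, 1.71 and 0.77.

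Neutrophil markers marked the same library. Of 6 genes 5 passed the filter (Camp did not), none was at 0 counts, and S100a9 was the most abundant, at a mean of 11.8 CPM. Their summed level was 23.9, 17.5, 7.70, 3.56 and 3.00 CPM in WT control, 4.97, 20.1, 8.17, 3.03 and 2.54 CPM in WT HFD, 5.17, 4.63, 4.92, 5.50 and 6.05 CPM in KO control and 2.73, 6.04, 5.88, 531 and 24.1 CPM in KO HFD mice. The median difference of the 5 was 7.37, all positive at an unadjusted p under 0.05 (6.58% of all genes were). Without KO HFD mouse 9, 2 of them passed the filter, with a median of 0.98 and 0 at that p in either direction. Ngp, a granule protein, reached 130 CPM in that mouse and S100a8, a calgranulin, 95.5 CPM, beside 0.122 to 4.67 CPM and 0.977 to 5.04 CPM in the other KO HFD mice. Whether these cells account for other values of mouse 9 was not tested.

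Macrophage and antigen presentation genes had a median difference of 0.57 over 22 tested members, all of them positive, 4 at an unadjusted p under 0.05 (6.58% of all genes were). Without KO HFD mouse 9 the median was 0.32 with 0 in either direction, and without WT control mouse 832 it was 0.48 with 1. There were 9 without KO control mouse 2, 7 without WT control mouse 835 and 2 without mouse 833 or WT HFD mouse 827. The median ran from 0.08 to 0.70 over all settings. Mpeg1, perforin-2 of macrophages, had 97.1, 112, 83.9, 71.2 and 161 CPM in KO control and 74.8, 94.8, 98.3, 407 and 121 CPM in KO HFD mice, so that only mouse 9 left the control range. In WT mice it had 54.1, 134, 87.3, 56.3 and 74 CPM on control diet and 55.3, 53.5, 33.8, 27.3 and 51.4 CPM on HFD, with mouse 832 highest. Its difference was 1.47 (SE 0.55, adjusted p = 0.307), or 0.77 without mouse 9, and ran from 0.37 to 1.68 over all settings. The 5 Kupffer cell markers summed to 631 CPM in KO HFD mouse 9 and to 274 to 331 CPM in the other KO HFD mice, with Cd5l the most abundant at a mean of 122 CPM.

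Matrix genes were high in WT control mouse 832. Of 24 stellate cell and matrix genes 22 were tested, with a median difference of 0.46 and 2 positive and 0 negative at an unadjusted p under 0.05 (6.58% and 5.68% of all genes were). Without mouse 832 the median was -0.09 with 0 and 0, and limma with weights had -0.03. It was 0.65 with 6 without WT HFD mouse 827, and 5 were positive without WT control mouse 831 or KO control mouse 5. Col14a1, a collagen of fibroblasts, had 94.6 CPM in mouse 832 and 28.6 to 34.3 CPM in the other WT controls, with a difference of 0.75 (SE 0.35, adjusted p = 0.401), or 0.28 without mouse 832. Cell cycle genes had a median difference of 0.74 over 21 tested members, 2 positive at an unadjusted p under 0.05 (6.58% of all genes were), and a median of -0.02 with 0 at that p without the 3 libraries that stood apart. Without KO HFD mouse 9 alone it was 0.29 with 0, and without WT control mouse 832 alone 0.43 with 0, while leaving out WT HFD mouse 826 gave 6 and KO HFD mouse 7 gave 5.

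Immediate early and stress genes had a median difference of 0.78 over 20 members, with 5 positive and 0 negative at an unadjusted p under 0.05 (6.58% and 5.68% of all genes were). This was 1.19 with 10 without KO control mouse 5, 0.53 with 2 without KO HFD mouse 9, 0.41 with 1 without WT control mouse 832, and 0.27 with 2 without the 3 libraries that stood apart. Atf3, a stress-induced transcription factor, was the 1 member called lower in WT livers (0.798% of all genes were), at -3.41 (SE 0.82, adjusted p = 0.0423). It had 4.1, 66.2, 9.58, 2.13 and 1.53 CPM in WT control and 0.736, 2.38, 1.42, 1.64 and 1.69 CPM in WT HFD mice, so mouse 832 stood far above and the diets overlapped. Without that mouse the value was -1.44 (adjusted p = 0.172), and the call held only without WT control mouse 831, 834 or 835, KO control mouse 4 or 5 or KO HFD mouse 9. The difference for Atf3 was 2.63 (SE 1.13), 0.66 without mouse 832 and -0.08 by limma with weights. The p53 target genes, 15 tested, had a median of 0.40, which was 0.07 without WT control mouse 832, with 2 positive and 0 negative in either fit. Bbc3, the apoptosis gene Puma, had a difference of 1.07 (SE 0.33, adjusted p = 0.232).

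Genes of endoplasmic reticulum folding had a median difference of -0.23 over 34 members, with 7 negative and 1 positive at an unadjusted p under 0.05 (5.68% and 6.58% of all genes were). Without the 3 libraries that stood apart the median was -0.39, with 14 negative and 0 positive. With 1 mouse left out the median ran from -0.34 to -0.15, with 4 to 9 negative. Herpud1, an ER-associated degradation factor, had 538, 273, 485, 578 and 749 CPM in WT control, 950, 726, 1085, 1111 and 777 CPM in WT HFD, 628, 647, 994, 1044 and 815 CPM in KO control and 590, 810, 595, 373 and 674 CPM in KO HFD mice. In WT livers 4 of 5 HFD mice were above all controls, and in KO livers 3 of 5 HFD mice were below all controls. Its difference was -1.27 (SE 0.34, adjusted p = 0.192), its WT effect of 0.83 being called only without KO HFD mouse 9 (adjusted p = 0.0442). Syvn1, a ubiquitin ligase of the same pathway, had -1.38 (SE 0.40, adjusted p = 0.194). Asns, asparagine synthetase, had 2.67 (SE 0.87, adjusted p = 0.246), or 1.70 without KO HFD mouse 9, with 25.5 CPM in that mouse and 2.23 to 7.21 CPM in the other KO HFD mice. Hspa1b, an inducible HSP70 gene with a near-identical relative, had -1.67 (SE 0.57, adjusted p = 0.273) and, in the fit without the 3 libraries, -2.39.

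Nuclear genes of oxidative phosphorylation had a median difference of -0.25 over 88 members, 76 of them below 0. At an unadjusted p under 0.05, 1 was positive and 2 were negative (6.58% and 5.68% of all genes were). The median was -0.10 without WT control mouse 832, and 11 were negative at that p without WT HFD mouse 829 and 6 without WT control mouse 835. Atp5d, an ATP synthase subunit gene that overlaps Cbarp on the opposite strand, had -0.54 (SE 0.22, adjusted p = 0.330). Mitochondrially encoded mRNAs had -0.22 over 7 of 13, with 0 and 0, and from -0.42 to -0.12 with 1 mouse left out. Ribosomal protein genes had -0.06 over 70 of 82, with 2 and 1, and PPAR, RXR and cofactor genes -0.17 over 15, with 0 and 0. The sign of the last turned without WT HFD mouse 829 (0.13). Ribosomal protein genes turned to 0.05 without WT HFD mouse 827, and to 0.04 when mouse 832 was left out of the WT controls.

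Interferon response genes had a median difference of -0.13 over 29 members, with 0 positive and 3 negative at an unadjusted p under 0.05 (6.58% and 5.68% of all genes were). It was positive without WT HFD mouse 827 (0.07), WT control mouse 834 (0.01) or KO control mouse 5 (0.22). Iigp1, an immunity-related GTPase, rose in WT livers by 0.70 (SE 0.17, adjusted p = 0.0393), with a difference of -0.51 (SE 0.24, adjusted p = 0.388). That call held only without WT HFD mouse 828 or 829, WT control mouse 831, KO control mouse 2, 3, 4 or 5 or KO HFD mouse 9 or 10 and otherwise reached 0.0773. Male-biased growth hormone genes, many of them major urinary protein genes whose reads are hard to divide, had a median of 0.18 over 38 tested members, with 3 and 2. It was -0.13 without WT control mouse 835, and the positive count was 0 without KO HFD mouse 9. Female-biased genes had -0.18 over 8 of 19, with 0 and 2, and the median was positive without WT HFD mouse 827 (0.39), KO control mouse 3 (0.61) or 4 (0.03) or KO HFD mouse 7 (0.06) or 8 (0.01). It was -0.70 without KO HFD mouse 10, and -2.47 over the 2 members at a mean of at least 5 CPM. Igfals, the acid-labile subunit that carries IGF-1, had a WT effect of 0.83 (adjusted p = 0.0479) and a difference of -0.98 (SE 0.29, adjusted p = 0.215), and Igf1 a difference of -0.41 (SE 0.17, adjusted p = 0.341). The call of Igfals held only without WT HFD mouse 826 or 827, WT control mouse 831 or KO HFD mouse 9 and otherwise reached 0.103.

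Slc17a8, a vesicular glutamate transporter gene, had 3.87, 2.42, 2.67, 5.29 and 5.1 CPM in WT control, 27.7, 22.4, 24.5, 15.6 and 24.7 CPM in WT HFD, 15.5, 17.3, 20.5, 19.1 and 5.39 CPM in KO control and 26.3, 15.6, 15.8, 2.27 and 11.8 CPM in KO HFD mice. It rose in all WT HFD mice and overlapped in KO mice, where control mouse 5 and HFD mouse 9 were low. The WT effect was 2.55 (SE 0.44, adjusted p = 0.00798), a call kept in all 20 fits, and the difference -2.67 (SE 0.60, adjusted p = 0.134). Pcp4l1 had a WT effect of 2.42 (SE 0.49, adjusted p = 0.0203), lost as a call without WT HFD mouse 828 or WT control mouse 833 or 834 (up to 0.0613), and a difference of -1.87 (SE 0.68, adjusted p = 0.299), or -1.20 without KO control mouse 3. Aatk, a kinase gene, had a WT effect of 1.99 (SE 0.27, adjusted p = 0.00269), a call kept in all 20 fits. Its KO effect was 1.10 (SE 0.27, adjusted p = 0.274) and its difference -0.89 (SE 0.38, adjusted p = 0.360).

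Depth, RNA composition and cell markers were compared between the diets within each genotype, in 16 measures a genotype and 32 tests by the exact permutation test (two-sided, smallest possible p = 0.00794). None reached an adjusted p of 0.05. The summed level of 6 sinusoidal endothelial markers was 216, 268, 268, 249 and 250 CPM in KO control and 282, 286, 280, 325 and 311 CPM in KO HFD mice, so that the KO diets did not overlap (exact permutation test, p = 0.00794, 0.127 after adjustment). The 4 B cell markers, of which 2 were below the filter, gave the same p, at 1.04 to 1.85 CPM and 2.11 to 5.13 CPM. In WT livers these sums overlapped between the diets. Adipocyte markers had means of 40.4 CPM in WT control and 60.9 CPM in WT HFD mice, with 113 CPM in mouse 827 (exact permutation test, p = 0.0476, 0.457 after adjustment). In KO mice they had 28.6 CPM on control diet and 38.5 CPM on HFD (exact permutation test, p = 0.0635, 0.457 after adjustment). Hepatocyte markers summed to a mean of 92114 CPM (SD 19813, n = 5) in WT control and 120292 CPM (SD 24285) in WT HFD mice (exact permutation test, p = 0.0714, 0.457 after adjustment). In KO livers the means were 87748 CPM (SD 10840) and 79207 CPM (SD 10101), with 61327 CPM in KO HFD mouse 9. The share of counts from mitochondrially encoded genes was 6.30% (SD 0.829) and 6.90% (SD 2.04) in WT, and 7.38% (SD 0.811) and 7.69% (SD 0.923) in KO mice on control diet and HFD. Whether these measures account for gene values above was not tested.

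Cell markers had medians for the difference that moved with single livers. The 6 hepatocyte markers had -0.48, with 1 negative at an unadjusted p under 0.05 (5.68% of all genes were), the 5 erythroid markers 0.93, the 5 Kupffer cell markers 0.62 and the 6 sinusoidal endothelial markers 0.40. Without KO HFD mouse 9 these were -0.39 (0 negative), 0.66, 0.29 and 0.31. Hepatocyte markers had -0.28 with 0 without WT control mouse 832. Erythroid markers had 0.53 without WT control mouse 834 and 1.19 without mouse 832. The 6 stellate cell markers had 0.22 (-0.05 without WT control mouse 832), the 5 tested cholangiocyte markers 0.29 (-0.02 without it), the 4 tested adipocyte markers 0.03 (-0.26 without KO HFD mouse 9) and the 2 tested B cell markers 0.24 (-0.03 without KO HFD mouse 10, -0.06 without WT control mouse 831). Pancreas acinar markers, with Ctrb1 the most abundant and Amy2a5 at 0 counts, summed to 677 CPM in KO HFD mouse 10 and at most 2.38 CPM elsewhere. Skeletal muscle markers summed to 16.9 CPM in the same mouse and at most 0.346 CPM elsewhere.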

How the data were processed

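Poly-A RNA of 20 livers was analysed, 5 mice in each of 4 groups (WT or KO, control diet or HFD, no Pio). The authors aligned reads with STAR 2.0.4b to Ensembl release 76 and deposited raw counts per gene of uniquely aligned, unambiguous reads from Subread featureCounts 1.4.5, not normalized, in 1 table per genotype. The 2 tables were joined on the Ensembl gene identifier (40594 shared genes, 96 in the WT table only). Repeated lines (598 and 574) were identical and were kept once. After removal of 353 rRNA genes, those reaching 1 CPM in 5 or more of the 20 mice were kept (12533). TMM factors ran from 0.886 to 1.28.

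Counts were fitted with edgeR 4.0.16 (robust quasi-likelihood, common dispersion 0.0643, R 4.3.3) with 1 mean per group. The contrasts were the diet effect in WT, that in KO and their difference, with p adjusted by Benjamini-Hochberg over all tested genes. Library measures were compared by the exact permutation test, two-sided. Alternatives were RLE factors, TMM within each table, no filter, a mean of at least 5 CPM, rRNA genes kept, DESeq2 1.42.0, limma 3.58.1 with sample weights, all 40 mice, 39 mice without KO Pio mouse 13, the mice of a genotype alone, and leaving out each of the 20 mice. After the data were seen, 2 were added: limma without sample weights, and leaving out WT control mouse 832, WT HFD mouse 829 and KO HFD mouse 9 together. No paired analysis was possible, since the groups share no mouse.

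The genes named were Pparg, the 7 exemplar genes of the study, the 6 genes in each direction with the smallest p for the difference at a mean of at least 5 CPM (none was called), up to 4 members of each list with the smallest p for the difference, and up to 6 genes in each direction with the largest called diet effect in a genotype and no overlap between diets. From these, those given in the text were chosen with their values known. Ppara, Rxra, the named regulators and enzymes, the called list members and other genes outside that rule were also chosen after their values were seen. The members compared and the 26 gene lists and 12 marker lists were chosen with earlier results of these data known. Overlaps between genes were taken from GENCODE annotation of GRCm38. Software for reading and drawing was matplotlib 3.10.9, scipy 1.17.1 and pandas 2.3.3 on numpy 2.4.6 in Python 3.11.15, and data.table (1.17.8) in R.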

Additional observations from a re-analysis of the deposited data

Results flagged for a closer look

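Values that lay far from the other 4 mice of their group, by Dixon's ratio of the gap to the nearest mouse over the range, numbered 68 in 372 groups of gene levels (93 genes) and 18 in 76 groups of library measures. For normally distributed values chance gives about 1 in 20 groups. Levels were taken here without a log scale and the genes were chosen with their values known, so the counts cannot be read against that share. Gene levels and marker sums are in CPM. For KO HFD mouse 9 they were Acadm (134), Alb (45797), Ano10 (18.0), Apcs (887), Arntl (28.8), Asns (25.5), Atf3 (2.79), Atg16l2 (20.0), Cd36 (54.8), Cyp2a12 (211), Cyp2d26 (552), Fabp4 (30.8), G6pdx (17.7), Hlf (37.6), Hspa1b (16.7), Lcn2 (2738), Lepr (11.0), Ltf (73.6), Mpeg1 (407), Mpo (48.7), Ngp (130), Nr1i3 (26.2), Orm2 (2825), Ppara (75.6), Rxra (565), S100a8 (95.5), Sds (218), Slc25a20 (64.1), the mitochondrial share (6.10%), the second principal component (-52.7), hepatocyte markers (61327), neutrophil markers (531), Kupffer cell markers (631) and cholangiocyte markers (118). For WT HFD mouse 827 they were Cfd (37.9), Col14a1 (38.4), Fabp4 (37.1), Igfbp1 (362), Lepr (3.45), Ltf (1.78), Mpo (1.84), Ngp (4.10), adipocyte markers (113) and pancreas acinar markers (2.38). For WT HFD mouse 829 they were Crat (219), Cyp2b9 (190), Gstm3 (64.7), Lcn2 (136), Mogat1 (2.23), Orm2 (23.7), Per2 (95.0), Pex11a (79.2), the third principal component (-59.2) and cholangiocyte markers (88.1). For WT control mouse 833 they were Chrna4 (575), Cyp7a1 (18.9), Elovl6 (288), Mvk (32.6), Pgd (172), Pnpla3 (170) and Tat (5712). For WT control mouse 832 they were Atf3 (66.2), Atp5d (281), Cidec (45.8), Col14a1 (94.6), Gstm3 (638), the TMM factor (1.28) and cholangiocyte markers (114). For KO control mouse 5 they were Asns (8.42), Cd36 (79.5), Sds (242) and the second principal component (-18.4). For WT control mouse 831 they were Crat (145), Pcp4l1 (4.79), S100a8 (5.75) and sinusoidal endothelium markers (119). For KO control mouse 3 they were Alb (88230), Cyp2b9 (48.0) and Srebf2 (89.0). For KO HFD mouse 10 they were pancreas acinar markers (677), skeletal muscle markers (16.9) and B cell markers (5.13). For WT HFD mouse 828 the value was Atp5d (717). For WT HFD mouse 826 the value was Map3k13 (27.5). For KO control mouse 4 the value was Pex11a (85.9). For KO control mouse 2 the value was pancreas acinar markers (1.33).

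For Ldah, every WT HFD mouse lay above and every KO HFD mouse below the controls of its genotype, and the difference of diet effects was -0.71 (edgeR test of the difference, adjusted p = 0.0739), which was not called.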

How the results depend on the processing

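Settings with another scaling of the libraries (RLE, TMM within each table) or with rRNA genes kept left the counts within 1.5 times of those reported, and the difference called 0 genes there by edgeR, as without a filter and at a mean of at least 5 CPM. The difference called 52 genes higher and 59 lower by DESeq2, 14 and 24 by limma with sample weights, 4 and 4 with all 40 mice, 81 and 55 with 39 mice, and 2 and 2 without 3 libraries. The WT diet effect called 337 higher and 304 lower by DESeq2, 147 higher by limma with sample weights, 415 and 429 with 39 mice, 243 and 206 without 3 libraries, 44 and 63 without a filter, and 17 and 16 with WT mice alone, where 1389 genes had an unadjusted p under 0.05. The KO diet effect called 26 higher and 11 lower by DESeq2, 217 and 204 by limma with sample weights, 9 higher by limma without them, 21 and 3 with all 40 mice, 36 and 14 with 39 mice, and 15 and 6 without 3 libraries. It called 0 higher in edgeR without a filter and 0 with KO mice alone. KO genes at an unadjusted p under 0.05 were 1271 without a filter, 464 at a mean of at least 5 CPM, 2417 by limma with sample weights and 1377 with KO mice alone. The cause was not tested.

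Leaving out 1 mouse at a time, the difference called 0 to 2 genes higher and 0 to 3 lower, the WT diet effect 27 to 245 and 21 to 252, and the KO diet effect 0 to 12 and 0 to 1. The difference for Atf3 was -0.0802 by limma with sample weights, and that for Fabp4 -0.89 without 3 libraries. With 1 mouse left out at a time, the difference changed sign in some fits and ran from -0.41 to 0.40 for Cd36, -1.07 to 0.12 for Cidec, -0.61 to 0.96 for Fabp4 and -0.0567 to 0.32 for Srebf1. The cause was not tested. Of the values of named genes, 8135 were counted as unchanged, 358 fell short of the threshold and 105 passed it. For a diet effect that was not called, unchanged meant a move smaller than the spread between mice. Its adjusted p was not looked at, so some of these passed the threshold, as did the WT effect of Cpt1a in 5 of 20 fits. A further 29 were counted as changed in direction, and 39, diet effects that were not called, moved beyond the spread between mice. Not every sign change of a diet effect is among the 29. The WT diet effect of Cd36, among others, ran from -0.39 to 0.10 with 1 mouse left out. Of list medians, 3238 stayed within the spread between mice and 83 moved beyond it.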
